A study of Mus musculus with 4 samples.

Results

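The genes described here encode secreted and mucosal defence proteins: the serum amyloid A genes Saa1, Saa2 and Saa3, the lysozymes Lyz1 and Lyz2, the protease inhibitor Slpi, the polymeric immunoglobulin receptor Pigr, the lectins Reg3b and Reg3g, and the resistin-like gene Retnlb. They were taken by symbol from a table of gene levels, and all 10 of them were present among its 24394 usable genes. The table came from polyadenylated RNA of 4 C57BL/6 mice aged 8 weeks. Of these, 2 were Usp25+/+ (mouse WT-139 and mouse WT-140) and 2 were Usp25-/- (mice KO-826 and KO-850), and they are the only groups. Every mouse, of either genotype, had been given 2.5% dextran sulfate sodium (DSS) for 5 days and then normal water for 2 days, and the RNA is labelled as a piece of colon near the anus. DSS injures the gut lining and is widely used to cause colitis. USP25 is a protease that removes ubiquitin from proteins, and the design asks how loss of it changes expression after DSS. The labels do not say how the Usp25 allele was made, which sex the mice had or whether they were littermates.

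Serum amyloid A proteins are acute-phase lipid-binding proteins. Saa1 and Saa2 are best known from the liver and the inflamed gut epithelium, and Saa3 is made outside the liver by macrophages and epithelial cells. Lysozymes cut the peptidoglycan wall of bacteria. In mice Lyz1 is the lysozyme of Paneth cells and Lyz2 that of macrophages and other myeloid cells, and alveolar type II cells of the lung also make lysozyme. SLPI inhibits the serine proteases of leukocytes, PIGR carries dimeric IgA across epithelia, REG3 lectins bind and kill bacteria at mucosal surfaces, and RELM-beta, the product of Retnlb, is secreted by goblet cells of the colon. In the gut, IL-22, IL-6 and IL-1 signals acting through STAT3, NF-kappaB and C/EBP factors are known inducers of many of these genes.

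Levels are given as FPKM, fragment numbers corrected for transcript length and for the mapped fragments of the library, so they may be compared between genes. The read number behind them is unknown. The labels were first checked on Usp25 itself, which was measured at 38.5 and 16.6 FPKM in the Usp25+/+ group and 2.65 and 1.71 FPKM in the Usp25-/- group. Genes of the gut epithelium were low or absent in part: 12 of 12 Paneth cell genes, 6 of 9 goblet cell genes and 5 of 14 colonocyte genes (Car1, Aqp8, Slc26a3, Cdh17 and Cdx2) stayed below 1 FPKM in every mouse. The other 9 colonocyte genes reached 1 FPKM in at least 1 mouse, the highest being Krt8 and Epcam, which are expressed in many epithelia. Lgals4, also among these 9, stood at 7.04 and 9.83 FPKM in Usp25+/+ and 70.6 and 28.8 FPKM in Usp25-/- mice. Krt20 stood at 4.31 and 3.11 against 52.4 and 7.35 FPKM, and Guca2a at 0.341 and 0.868 against 16.6 and 3.89 FPKM. All 7 tested colonocyte genes had a higher mean log2 level in Usp25-/- mice (median difference 1.38, 0 past the adjusted threshold), and their part in the results below was not tested. All 10 alveolar type II genes were above 3 FPKM in each library, and surfactant gene Sftpc stood at 339 to 2596 FPKM. These levels put the label of colon in doubt for all 4 libraries. Which tissue the RNA came from was not determined, so low levels of gut genes below describe these libraries and not necessarily the colon. Mouse WT-139 stood apart, with correlations of 0.876 to 0.890 to the other libraries over 12103 genes, against 0.933 to 0.968 among those 3 libraries (Pearson's r of log2(FPKM + 1) across genes, which are not independent replicates). The genotype differences of the members are therefore also given without it. Mouse WT-139 also had the fewest genes listed at 0: 3862, against 8813 in WT-140, 7175 in KO-826 and 8612 in KO-850. Whether this bears on genes detected in that mouse alone was not tested. In whole tissue, a difference in the number of cells of a type cannot be told apart from a difference in RNA per cell.

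The 10 genes differed by several orders of magnitude in level, and mouse WT-139 was the highest for 4 and the lowest for 2 of the 6 tested ones. Over all tested genes it was the highest for 29.7% and the lowest for 39.2%. The order of levels was identical in the 3 mice other than WT-139, with Lyz2 above Slpi, then Lyz1, Saa3, Reg3g and Pigr, and for neighbours in this order the ranges over those 3 mice did not overlap. In mouse WT-139 Saa3 moved from the 4th to the 2nd place and Reg3g passed Lyz1. Saa1, Saa2 and Retnlb were above 0 in 1 mouse each, and Reg3b in none, so their order at the bottom was not resolved. The 6 genes from Lyz2 to Pigr reached 1 FPKM in at least 2 mice and entered the test across genes, and the other 4 did not.

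**Figure D1:**
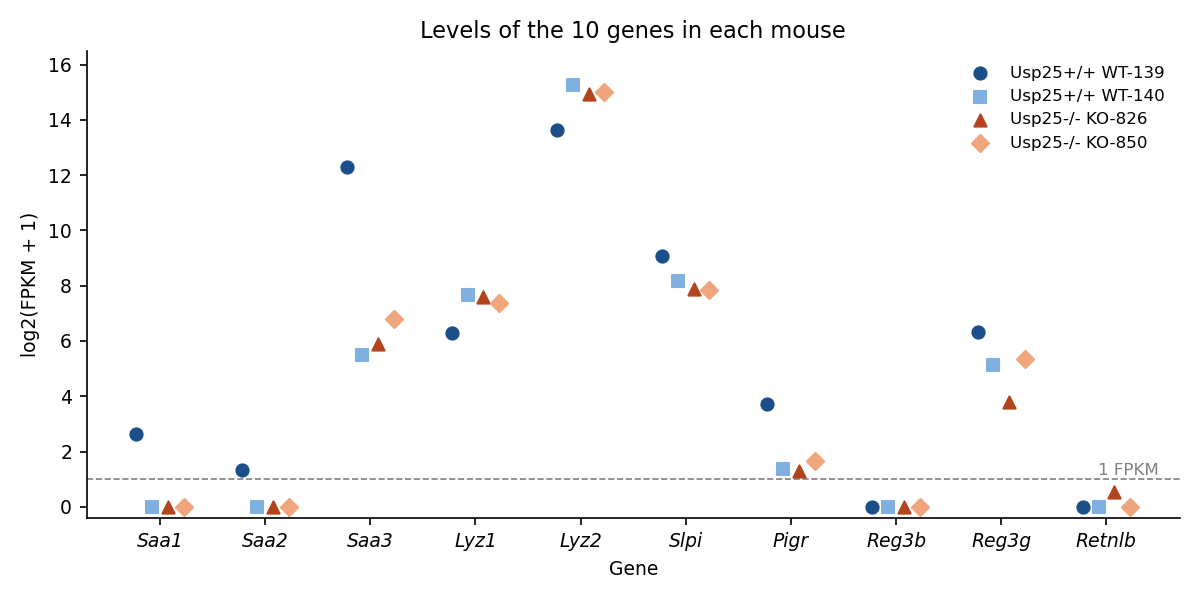
Each point is the level of a gene in 1 mouse (vertical axis, log2(FPKM + 1)), with the 10 genes along the horizontal axis. Mouse WT-139 is highest for Saa1, Saa2, Saa3, Slpi, Pigr and Reg3g and lowest for Lyz1 and Lyz2, and the dashed line marks 1 FPKM.

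Of the 6 tested genes 0 passed limma's moderated test between the genotypes (Benjamini-Hochberg adjusted p, threshold 0.05), and of all 12103 tested genes 0% did. No member had an unadjusted p under 0.05 either, against 3.3% of all tested genes. Usp25 itself, with a log2 difference of -3.07, did not pass (limma unadjusted p = 0.00104, adjusted p = 0.968). A result of 0 calls therefore does not show that levels were equal. The mean log2(FPKM + 1) was higher in Usp25-/- mice for Lyz1 and Lyz2 and lower for Saa3, Slpi, Pigr and Reg3g. The median log2 difference over the 6 genes was -0.92, beside 0.03 over all tested genes. Without mouse WT-139 it was -0.23, beside -0.01. The genotype groups did not overlap for 1 of the 6 genes, Slpi, where 33.7% of all tested genes had groups that did not overlap and 14.7% had lower values in both Usp25-/- mice. For 1 gene alone, permuting 2 mice against 2 exactly gives no p below 0.333. The labels name no separate litters or cages, so p-values measure only the spread between these mice, which may in part be technical.

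**Figure D2:**
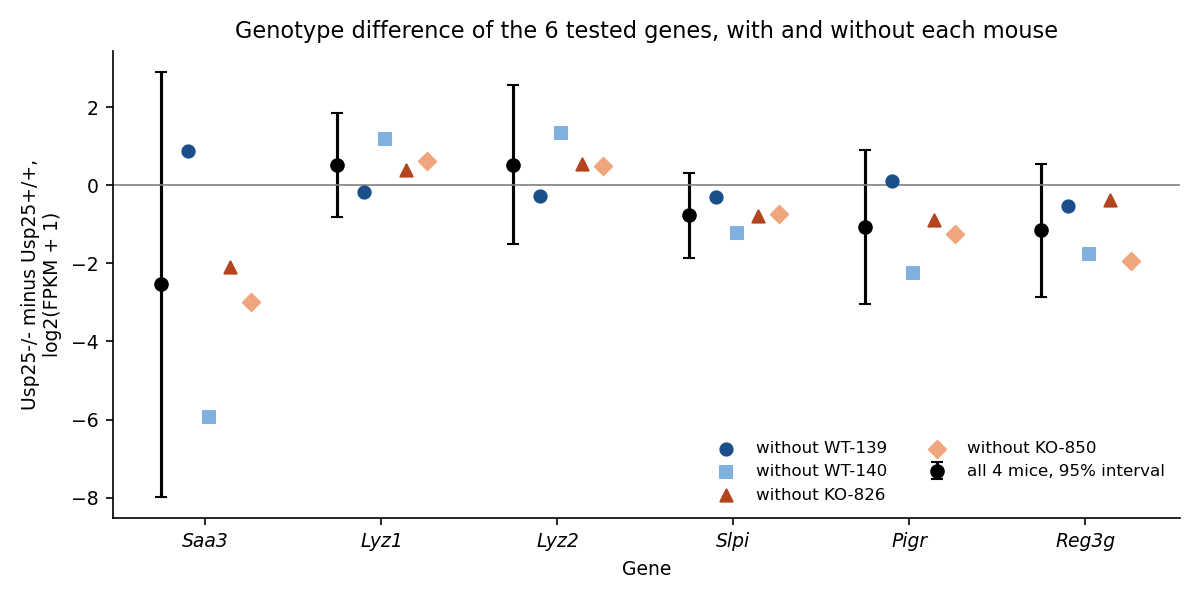
Difference between Usp25-/- and Usp25+/+ mice in mean log2(FPKM + 1) for the 6 tested genes, with all 4 mice (black, with limma's 95% interval) and with each mouse left out in turn (coloured). Every black interval spans 0, and Saa3 goes from -5.94 without mouse WT-140 to 0.87 without mouse WT-139.

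Saa3 was the serum amyloid gene expressed in these libraries, and its level was set apart in a single mouse. Levels were 4990 and 43.5 FPKM in the Usp25+/+ group and 58.3 and 110 FPKM in the Usp25-/- group. Mouse WT-139 was 45.3-fold above the next highest mouse, KO-850, while the other Usp25+/+ mouse was the lowest of the 4, so the groups overlapped. Measured as log2(FPKM + 1) in mouse WT-139 minus the mean of the other mice, the excess of Saa3 was 6.23, the largest of all 12103 tested genes. Saa3 ranked 10th among all genes in mouse WT-139 and between 591st and 1607th in the others. The log2 difference between the genotypes was -2.54 ± 2.14 (SE, n = 2 mice a group; 95% interval -7.97 to 2.90; limma adjusted p = 0.968). Without mouse WT-139 its sign turned, to 0.87 (adjusted p = 0.758). Without mouse WT-140, when mouse WT-139 alone stands for Usp25+/+ and is assumed to vary like the others, it was -5.94 with an adjusted p of 0.0300.

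Saa1 and Saa2 were detected in the same mouse only. Saa1 had 5.20 FPKM in mouse WT-139 and was listed at 0 in every other mouse. Saa2 had 1.54 FPKM in this mouse and was likewise listed at 0 in the remaining 3. Both genes lay far below Saa3 there, Saa1 at 0.104% of its level. Neither was tested, since each reached 1 FPKM in 1 mouse. With no read totals, a listed 0 does not show that the gene was silent. Mouse WT-139 had the fewest genes listed at 0 of all the libraries (3862).

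The serum amyloid genes lie together on chromosome 7 of the mm9 build: Saa3 from 53967368 to 53971046 on the minus strand, Saa1 from 53995871 to 53998350 on the minus strand and Saa2 from 54007203 to 54009684 on the plus strand. Saa1 and Saa2 are divergent neighbours with 8852 bases between them. Their coding sequences are both 369 bases long and 95.1% identical, with 18 differing positions, while Saa1 and Saa3 are 73.2% identical. Of all 50-base windows, 10.8% of the Saa1, 9.09% of the Saa2 and 1.87% of the Saa3 transcript also occur in a transcript of another gene. Most windows of each of the 3 transcripts thus occur in no other gene. How fragments from the shared windows were split between Saa1 and Saa2 is not known. Because the 3 genes were all highest in mouse WT-139, the 250 bases before their RefSeq start sites (GRCm38.p6) are shown, 5′ to 3′ in the direction of the gene, from chr7:46742981-46743230 (minus strand), chr7:46751583-46751832 (plus strand) and chr7:46715677-46715926 (minus strand). Capitals mark matches to the C/EBP motif TTGCNNAA on either strand:
Saa1: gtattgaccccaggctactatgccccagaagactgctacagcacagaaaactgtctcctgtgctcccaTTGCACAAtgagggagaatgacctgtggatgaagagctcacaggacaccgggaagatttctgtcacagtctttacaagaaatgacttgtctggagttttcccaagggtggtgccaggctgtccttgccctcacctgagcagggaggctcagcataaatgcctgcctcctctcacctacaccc
Saa2: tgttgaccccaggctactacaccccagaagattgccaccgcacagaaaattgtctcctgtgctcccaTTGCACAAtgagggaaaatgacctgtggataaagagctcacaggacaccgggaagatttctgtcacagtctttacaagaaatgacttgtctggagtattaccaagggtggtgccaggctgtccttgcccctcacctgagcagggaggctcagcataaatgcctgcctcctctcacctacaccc
Saa3: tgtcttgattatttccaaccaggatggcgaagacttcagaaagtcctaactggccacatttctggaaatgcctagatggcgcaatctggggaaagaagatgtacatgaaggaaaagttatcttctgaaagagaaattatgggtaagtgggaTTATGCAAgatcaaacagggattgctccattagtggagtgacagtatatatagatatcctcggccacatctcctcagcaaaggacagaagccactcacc
The Saa1 and Saa2 stretches share 238 of 250 bases when aligned, and Saa1 and Saa3 share 117. Each of the 3 holds 1 match, TTGCACAA in Saa1 and Saa2 and TTATGCAA in Saa3. Among the 9 members with a promoter entry 5 hold a match, the others being Lyz1 (TTAAGCAA), which was lowest in mouse WT-139, and Slpi (TTGAGCAA). No match was found in Pigr and Reg3g, which were highest in that mouse, or in Lyz2 and Reg3b. Of 32851 RefSeq promoters of the same length, 9.56% hold such a match. A search on both strands for the STAT motif TTCNNNGAA and for the kappaB consensus found no match of these letters in the 3 windows, and 7.02% and 7.25% of all promoters hold one. Among the other members, Reg3b holds a STAT match (TTCTTGGAA) and Reg3g a kappaB match (GGGAAACCCC). These matches describe letters only.

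Lyz2 was the most abundant of all genes in 3 of the 4 libraries, and its level was lowest in mouse WT-139. Levels were 12613 and 38922 FPKM in the Usp25+/+ group and 31444 and 32571 FPKM in the Usp25-/- group. The Usp25-/- mice lay between the Usp25+/+ mice, so the groups overlapped. Lyz2 made up 2.36% of the column sum of FPKM in mouse WT-139 and 5.57% to 7.14% in the other mice. It ranked 4th among all genes in mouse WT-139 and 1st in each of the others. The log2 difference was 0.53 ± 0.80 (SE; 95% interval -1.51 to 2.57; limma adjusted p = 0.970), and -0.28 without mouse WT-139.

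Lyz1 followed Lyz2 at a nearly fixed small share. Levels were 77.7 and 202 FPKM in the Usp25+/+ group and 194 and 166 FPKM in the Usp25-/- group, again lowest in mouse WT-139 and overlapping between the groups. The log2 difference was 0.51 ± 0.52 (SE; 95% interval -0.81 to 1.84; limma adjusted p = 0.968), and -0.17 without mouse WT-139. Lyz1 was 0.616% of Lyz2 in mouse WT-139, 0.519% in WT-140, 0.617% in KO-826 and 0.510% in KO-850. The share thus moved by little while Lyz2 moved 3.09-fold between its lowest and its highest mouse. Paneth cells, in which Lyz1 is the known lysozyme, left almost no trace: the summed level of 12 Paneth cell genes was 2.59 and 0.586 FPKM in Usp25+/+ mice and 0 in both Usp25-/- mice, and the alpha-defensin genes Defa5, Defa20, Defa21, Defa23 and Defa24 were listed at 0 throughout.

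The lysozyme genes are neighbours on the minus strand of chromosome 10 (mm9), Lyz2 from 116714390 to 116719377 and Lyz1 from 116724852 to 116729924. Their coding sequences, from the Gencode annotation of the same build, are shown because the likeness of the pair bears on how fragments are split between them. Positions 1 to 300 are printed, 5′ to 3′ from the start codon, and capitals mark the 20 positions in this stretch at which they differ:
Lyz1: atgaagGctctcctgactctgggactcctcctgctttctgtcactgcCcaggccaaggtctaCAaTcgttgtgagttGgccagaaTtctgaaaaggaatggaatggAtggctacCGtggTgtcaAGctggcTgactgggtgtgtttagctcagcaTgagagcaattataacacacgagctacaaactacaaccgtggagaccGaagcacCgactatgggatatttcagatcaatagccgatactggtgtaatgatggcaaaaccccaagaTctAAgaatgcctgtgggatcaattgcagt
Lyz2: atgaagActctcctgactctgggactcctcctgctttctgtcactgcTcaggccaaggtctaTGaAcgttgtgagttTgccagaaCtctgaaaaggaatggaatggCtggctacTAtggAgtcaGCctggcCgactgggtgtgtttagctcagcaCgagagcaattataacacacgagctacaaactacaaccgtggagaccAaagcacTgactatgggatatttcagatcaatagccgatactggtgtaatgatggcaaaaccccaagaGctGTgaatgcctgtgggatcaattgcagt
The whole coding sequences are both 447 bases long and differ at 22 positions, an identity of 95.1%. The longest run of shared bases is 118. Over the whole transcripts, 16.0% of the 50-base windows of Lyz1 also occur in Lyz2, which is the only other gene sharing them. How the authors assigned such fragments is not stated in the labels, and the part of shared fragments in the level of Lyz1 was not tested.

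**Figure D3:**
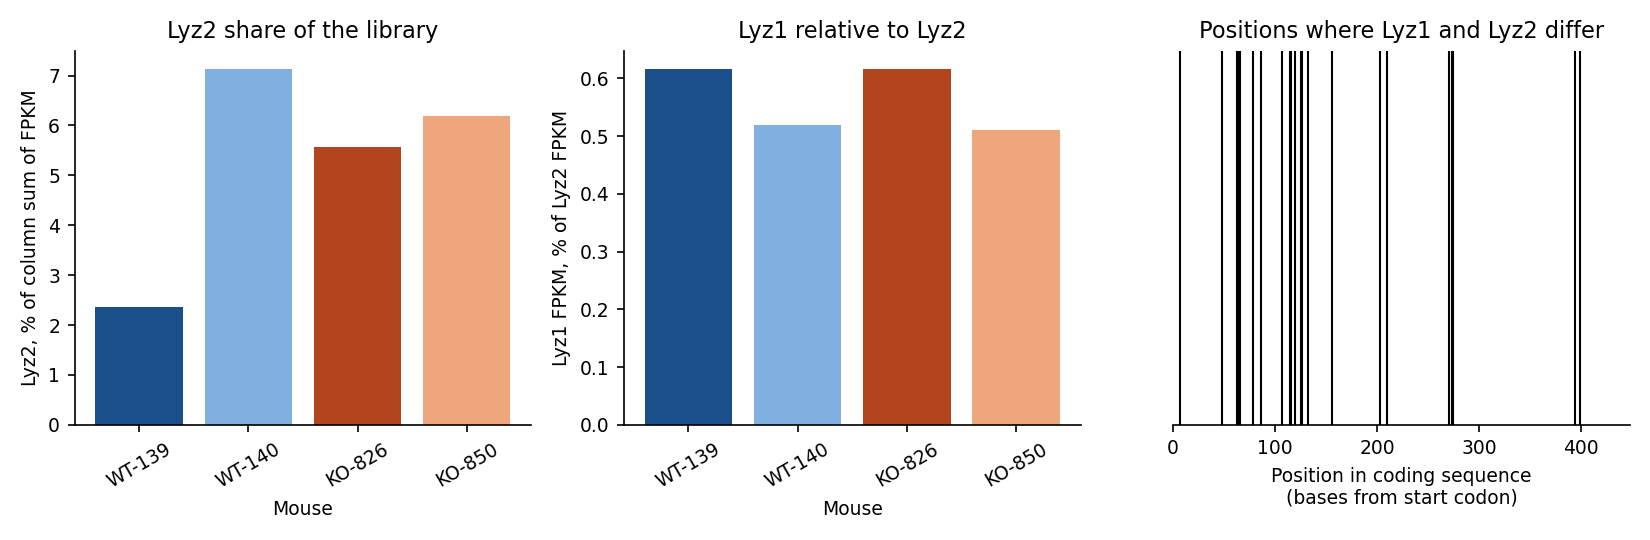
Lyz2 as a percentage of the summed FPKM of each mouse (left), Lyz1 FPKM as a percentage of Lyz2 FPKM in each mouse (middle), and the 22 positions of the 447-base coding sequence at which the 2 genes differ (right, bases counted from the start codon). The share of Lyz2 ranges from 2.36% to 7.14%, while Lyz1 stays between 0.510% and 0.617% of Lyz2.

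Some markers of the cells known to make lysozyme moved with it and others did not. The summed level of 10 alveolar type II genes was 1615 and 3973 FPKM in Usp25+/+ mice and 5105 and 4806 FPKM in Usp25-/- mice, lowest in mouse WT-139. Most of this sum was Sftpc and Sftpb, and Sftpa1, Slc34a2, Napsa and Etv5 were not lowest in that mouse. The 12 alveolar macrophage genes summed to 8113 and 12480 FPKM and to 11840 and 9284 FPKM, also lowest in mouse WT-139. Most of this second sum was Chil3 (6219 and 8777 against 8882 and 6380 FPKM), and 2 of the 12, Marco and Fabp4, were highest in mouse WT-139. The 13 general macrophage and monocyte genes summed to 6671 and 7877 FPKM and to 7201 and 6236 FPKM, lowest in mouse KO-850. Most of this sum was Ctss and Cd14, which went opposite ways in mouse WT-139. Ctss was lowest there (1448 and 4079 against 3654 and 3629 FPKM) and Cd14 highest (3392 and 673 against 1493 and 637 FPKM). Lgals3, C1qa, C1qb, C1qc and Fcgr1 were also lowest in that mouse, C1qb and Fcgr1 by little. Of the 13 genes 4 were highest there, Cd14 among them. Neutrophils are myeloid cells too, and all 13 neutrophil genes were highest in mouse WT-139, where Lyz2 was lowest. They summed to 47717 and 848 FPKM in Usp25+/+ mice and to 2263 and 1376 FPKM in Usp25-/- mice. What part any of these cells had in the lysozyme levels was not tested.

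Slpi was the only one of the 6 tested genes whose groups did not overlap. Levels were 539 and 285 FPKM in the Usp25+/+ group and 234 and 227 FPKM in the Usp25-/- group, or 412 ± 179 against 230 ± 4.56 (SD, n = 2). Both Usp25-/- mice were thus below either Usp25+/+ mouse. The Usp25-/- mice were close to each other and mouse WT-140 lay nearer to them than to mouse WT-139. The log2 difference was -0.76 ± 0.43 (SE; 95% interval -1.86 to 0.33; limma adjusted p = 0.968), and -0.31 without mouse WT-139 (adjusted p = 0.772). Slpi lies on chromosome 2 from 164179806 to 164214831 on the minus strand (mm9), and none of its 50-base windows occur in another gene's transcript. Its best known target, neutrophil elastase (Elane), the granule protease gene Ctsg and the granule peroxidase gene Mpo stayed at or below 0.648 FPKM in every mouse. Prtn3, another granule protease gene of the leukocyte protease list, stood at 1.28 FPKM and at 0 against 1.14 and 2.19 FPKM. RNA levels do not give the amounts of the proteases themselves. These 4 genes were named after their values were seen.

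Reg3g was expressed and its neighbour Reg3b was not detected. Reg3g was measured at 79.7 and 33.6 FPKM in the Usp25+/+ group and 12.9 and 39.7 FPKM in the Usp25-/- group. It was highest in mouse WT-139 and lowest in mouse KO-826, and the groups overlapped. The log2 difference was -1.15 ± 0.67 (SE; 95% interval -2.85 to 0.54; limma adjusted p = 0.968). It was -0.54 without mouse WT-139 and -0.38 without mouse KO-826. Reg3b was listed at 0 in all 4 mice. Both genes lie on chromosome 6 (mm9), Reg3b from 78320879 to 78323460 on the plus strand and Reg3g from 78416262 to 78418868 on the minus strand. Their coding sequences are 75.9% identical, with a longest shared run of 35 bases, and no 50-base window of either occurs in another gene, so the 2 levels can be told apart by sequence. Before the start sites, aligned, 173 of 250 bases were shared between Reg3b and Reg3g.

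Pigr was the lowest of the 6 tested members. Levels were 12.1 and 1.60 FPKM in the Usp25+/+ group and 1.47 and 2.14 FPKM in the Usp25-/- group. Mouse WT-139 was 5.65-fold above the next highest mouse, and the other 3 mice lay together across the genotypes. The log2 difference was -1.07 ± 0.78 (SE; 95% interval -3.05 to 0.92; limma adjusted p = 0.968), and 0.10 without mouse WT-139. The epithelial adhesion gene Epcam, for comparison, was measured at 57.8 and 35.8 FPKM in the Usp25+/+ group and 205 and 69.9 FPKM in the Usp25-/- group. Pigr lies on chromosome 1 from 132723261 to 132748826 on the plus strand (mm9).

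Retnlb, the goblet cell member, was listed at 0 in 3 mice and stood at 0.457 FPKM in mouse KO-826. It lies on chromosome 16 from 48816969 to 48819004 on the plus strand (mm9). Of 9 goblet cell genes in the same libraries 3 reached 1 FPKM in any mouse. The gut mucin gene Muc2 reached at most 0.193 FPKM, and Zg16 and Spink4 were listed at 0 in all mice. Tff3, a trefoil peptide of goblet cells, stood at 7.25 FPKM in mouse KO-850 and was listed at 0 elsewhere, and the goblet cell factor Spdef reached 2.14 FPKM in mouse KO-826. Agr2, which airway secretory cells share with goblet cells, was the highest of the list at 18.6 to 24.4 FPKM.

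The genes whose profile over the 4 mice was closest to a member were found by the Euclidean distance between log2(FPKM + 1) values, each centred on its own mean, over the 11429 of the 12103 tested genes that are left without predicted, RIKEN and small RNA entries. The nearest to Saa3 were Lcn2, a siderophore-binding defence protein (distance 0.80), and Bpifa1, an airway defence protein (0.93). Lcn2 was measured at 5537 and 86.7 FPKM in the Usp25+/+ group and 82.8 and 105 FPKM in the Usp25-/- group, and Bpifa1 at 1653 and 29.7 against 24.8 and 32.5 FPKM. Both were thus high in mouse WT-139 alone. Next to Lyz2 came Sh3glb2 (0.04) and Akt1s1 (0.05), to Lyz1 Akr7a5 (0.04) and Mrps24 (0.07), to Slpi Klf3 (0.07) and Itga5 (0.07), to Pigr Gas7 (0.06) and Adgre5 (0.11), and to Reg3g Tnfsf14 (0.26) and Acap1 (0.32). Among the members themselves Lyz1 and Lyz2 were nearest to each other (0.27), and every other pair was at least 1.08 apart. With 4 mice such distances describe these libraries only.

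**Figure D4:**
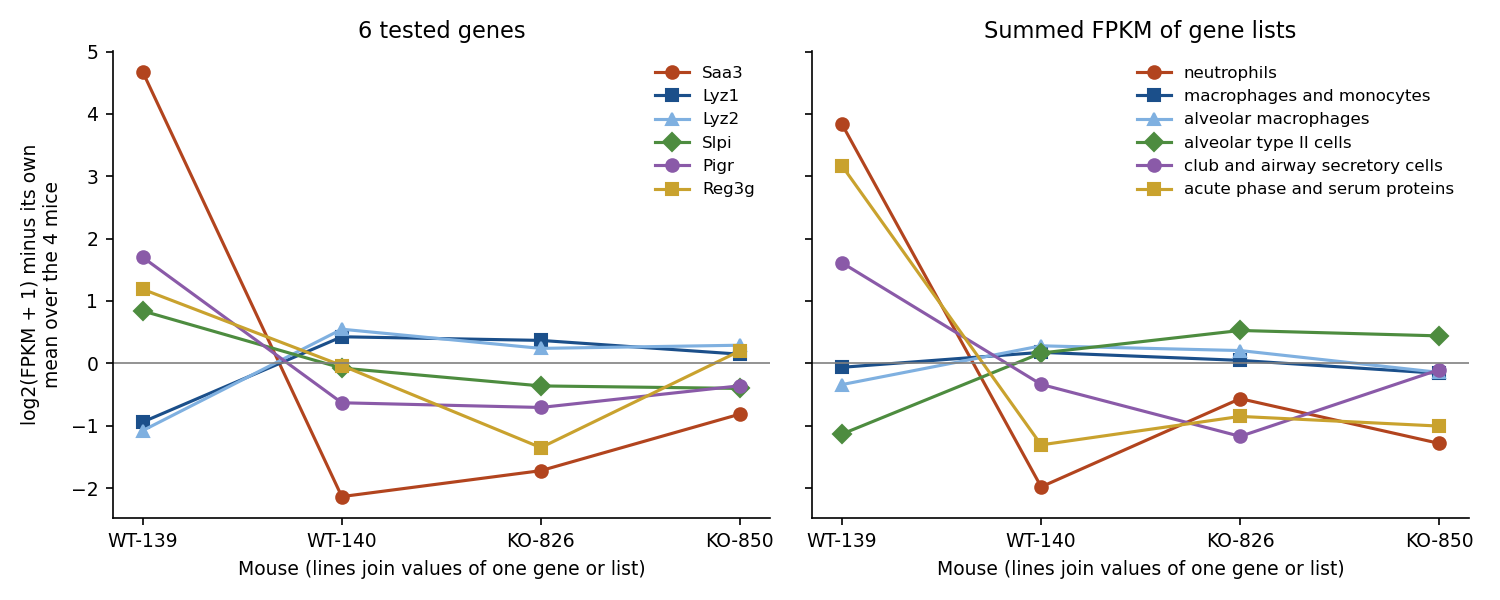
Level in each mouse as log2(FPKM + 1) minus its own mean over the 4 mice, for the 6 tested genes (left) and for the summed FPKM of 6 gene lists (right), with lines joining the values of 1 gene or list. Saa3 and the sums of neutrophil and acute phase genes are high in mouse WT-139. Most of the acute phase sum in that mouse is Lcn2, which is also in the neutrophil list. Lyz1, Lyz2 and the alveolar type II sum, most of it Sftpc and Sftpb, are low there.

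Most of the other tested acute phase genes were, like Saa3, highest in mouse WT-139. Of 20 listed genes 12 were tested and 0 passed limma's adjusted threshold in either direction. They were highest in mouse WT-139 for 9 of 12, where 29.7% of all tested genes were. Haptoglobin (Hp), which binds free haemoglobin, was measured at 1223 and 126 FPKM in the Usp25+/+ group and 279 and 139.4 FPKM in the Usp25-/- group. Complement factor B (Cfb) stood at 469 and 44.9 against 49.2 and 52.0 FPKM. Their mean log2 level was lower in Usp25-/- mice for 11 of 12 genes (median difference -0.99), but without mouse WT-139 for 4 of the 10 still tested (median 0.10). Genes of hepatocytes, the classical source of acute phase proteins, were near 0: 7 of 8 stayed below 1 FPKM in all mice.

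Neutrophil markers were high in the same mouse. All 13 were highest in mouse WT-139, and their summed level was 47717 and 848 FPKM in Usp25+/+ mice and 2263 and 1376 FPKM in Usp25-/- mice. The airway secretory genes summed to 2731 and 707 FPKM and to 396 and 832 FPKM, with 6 of 7 tested genes highest in mouse WT-139. Lcn2 stands in both the neutrophil and the acute phase list, and Bpifa1 and Bpifb1 stand in the airway and the antimicrobial list. The part of these cells in the levels of Saa3, Slpi, Pigr and Reg3g was not tested.

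Secreted antimicrobial genes outside the 10 members gave 0 calls among 19 tested of 38 listed. Of these 13 were lower and 6 higher in Usp25-/- mice (median log2 difference -1.34), and without mouse WT-139 4 were lower and 12 higher (median 0.61). S100a8 and S100a9, the subunits of calprotectin, are neutrophil products and are also in the neutrophil list. So are Retnlg, Ngp and Camp of this antimicrobial list, and the medians therefore in part repeat the neutrophil result. S100a8 stood at 19445 and 382 against 838 and 536 FPKM, and S100a9 at 18028 and 272 against 1013 and 536 FPKM. Chil3, a chitinase-like protein of alveolar macrophages, did not set mouse WT-139 apart, at 6219 and 8777 against 8882 and 6380 FPKM.

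Among the cytokines that induce these genes, Il1b, Il1a and Il22 were highest in mouse WT-139 and Il18 was lowest there. Among 20 listed ligands and receptors 16 were tested and 0 passed, with 12 lower and 4 higher in Usp25-/- mice (median log2 difference -0.37), and 5 lower and 10 higher without mouse WT-139 (median 0.12). Il1b was measured at 7682 and 594 FPKM in the Usp25+/+ group and 1965 and 760 FPKM in the Usp25-/- group, and Il1a at 1370 and 112 against 214 and 68.6 FPKM. The groups did not overlap for 5 of 16, 2 higher and 3 lower in Usp25-/- mice, beside 33.7% of all tested genes. An unadjusted limma p under 0.05 was found for 2 of the 16, beside 3.3% of all tested genes. Il33, an alarmin of epithelial and stromal cells, stood at 30.2 and 35.2 against 268 and 112 FPKM (log2 difference 2.37, limma unadjusted p = 0.00401, adjusted p = 0.968; 2.27 without mouse WT-139). Tnf stood at 305 and 69.2 against 43.7 and 27.1 FPKM (log2 difference -2.05, limma unadjusted p = 0.0384, adjusted p = 0.968; -0.99 without mouse WT-139). Il22, an inducer of Reg3 genes in the gut, had 4.55 FPKM in mouse WT-139 and 0 in the other mice. Il33, Tnf and Il22 were named after their values were seen. Il18 stood at 107 and 264 against 236 and 221 FPKM.

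Transcription factors and adaptors of these pathways gave 0 calls among 16 tested of 20 listed, with 13 lower and 3 higher in Usp25-/- mice (median log2 difference -0.50). Without mouse WT-139, 9 were lower and 7 higher (median -0.05). Of the 16, 2 had an unadjusted limma p under 0.05, beside 3.3% of all tested genes, and they went opposite ways. Gata6 had a log2 difference of 1.27 (limma unadjusted p = 0.00597, adjusted p = 0.968), and 1.19 without mouse WT-139. Socs3 had one of -0.90 (limma unadjusted p = 0.0419, adjusted p = 0.968), and -0.64 without mouse WT-139. Both were named for their p-values. Nfkbiz, a nuclear co-factor of NF-kappaB that is needed for many acute phase and antimicrobial genes, stood at 391 and 81.5 against 73.2 and 61.0 FPKM. Cebpb, a C/EBP factor of the acute phase response, was on the opposite side at 127 and 199.9 against 246 and 208 FPKM. The groups did not overlap for 8 of the 16 genes, 5 lower (Stat3, Socs3, Nfkbiz, Rela and Myd88) and 3 higher (Cebpb, Sox9 and Gata6) in Usp25-/- mice, beside 33.7% of all tested genes. Receptors for serum amyloid A gave 0 calls among 8 tested of 9. Tlr2, a receptor of bacterial lipoproteins, stood at 436 and 190 against 257 and 171 FPKM, and the formyl peptide receptor Fpr1 at 476 and 77.5 against 105 and 79.96 FPKM. The scavenger receptor Cd36 stood at 223 and 184 against 137 and 169.6 FPKM. The groups did not overlap for 2 of the 8 tested receptor genes, Cd36 among them, beside 33.7% of all tested genes. Both were lower in Usp25-/- mice.

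The genes of IgA, the cargo of PIGR, showed no shared direction, with 5 of 9 tested genes higher and 4 lower in Usp25-/- mice, 0 past the threshold and a median log2 difference of 0.04. Jchain, which joins IgA dimers, was measured at 11.8 and 60.9 FPKM in the Usp25+/+ group and 15.9 and 24.9 FPKM in the Usp25-/- group. It was lowest in mouse WT-139, where Pigr was highest. Xbp1, a factor of secretory cells, stood at 124 and 85.8 against 103 and 96.1 FPKM, and the plasma cell and epithelial proteoglycan Sdc1 at 82.3 and 55.4 against 131 and 72.2 FPKM. Among leukocyte proteases and protease inhibitors apart from Slpi, 10 of 18 genes stayed below 1 FPKM in all mice, and 0 of 8 tested genes passed. The 3 highest were the cystatins Cstb and Cst3, which inhibit cysteine proteases rather than serine proteases, and progranulin (Grn), which SLPI is known to protect from elastase. Cstb stood at 1249 and 1153 against 882 and 695 FPKM, Cst3 at 429 and 1063 against 834 and 835 FPKM, and Grn at 284 and 503 against 345 and 426 FPKM. The groups did not overlap for 3 of the 8, beside 33.7% of all tested genes. Of these 3, 2 were higher and Cstb lower in Usp25-/- mice, and the log2 difference of Cstb was -0.62 (limma adjusted p = 0.968).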

How the data were processed

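The deposited table gives FPKM values, 1 column for each mouse, per the file headers. Bowtie 0.12.2 and build mm9 are named in the submitters' processing notes. How FPKM was computed, with which annotation, strand setting or filter, is not stated there or in the labels. Read totals are unknown, so no counting interval was given. Symbols turned into dates (27) were left out. Genes with at least 1 FPKM in at least 2 mice were tested as log2(FPKM + 1), a scale that understates changes of low genes. The genotypes were compared with limma 3.58.1 in R 4.3.3 with a mean-variance trend, two-sided, with Benjamini-Hochberg adjustment over all tested genes. The test was also run on simulated data. Members and gene lists (7 for pathways, 9 for cell types; 240 of 243 entries found, older names through RefSeq) were chosen with earlier results of these data known. Named genes are the members, Usp25, the 3 highest of each pathway list, and the 2 nearest profiles of each tested member. Marker genes stand beside results as lists, and the single marker or list genes named outside this rule were chosen after their values were seen. Positions come from Gencode for mm9, promoters from RefSeq (9 of 10 members matched; GRCm38.p6). Python 3.11.15, pandas 2.3.3, Biopython 1.88 and matplotlib 3.10.9 were used. Alternatives covered the pseudocount, filter, scaling, variance model and each mouse left out.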

Additional observations from a re-analysis of the deposited data

How the results depend on the processing

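The pseudocount of 0.1, no filter on low values, columns rescaled to the mean total, median-of-ratios scaling and no mean-variance trend left every one of the 6 members in its direction and below the threshold. They gave 0 called genes each, and Slpi as the 1 gene whose groups did not overlap. Leaving out each mouse in turn gave 0 to 163 called genes, 0 to 1 called members and 1 to 6 members whose groups did not overlap, which is easier to reach with 1 mouse in a group. The 163 genes and the 1 member, Saa3, were called without mouse WT-140. Over the 4 such fits the log2 difference ran from -5.94 to 0.87 for Saa3, -0.17 to 1.20 for Lyz1, -0.28 to 1.34 for Lyz2, -1.22 to -0.31 for Slpi, -2.23 to 0.10 for Pigr and -1.93 to -0.38 for Reg3g. Without mouse WT-139 the sign turned for Saa3, Lyz1, Lyz2 and Pigr and held for Slpi and Reg3g. Among all 11793 genes tested without mouse WT-140, 5434 were higher and 4110 lower in Usp25-/- mice without overlap, beside 6 of 6 members. Among all 11747 genes tested without mouse KO-826, 3555 were higher and 2657 lower without overlap, beside 1 of 6 members. A fit without a filter gave Saa1 a log2 difference of -1.32 and Saa2 one of -0.67 (limma adjusted p = 0.965 for both), each resting on mouse WT-139. No paired analysis was possible because the labels give no number shared by mice of both genotypes.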

Other observations

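Other members of the same protein families followed no common profile. In the Reg family Reg1, Reg2 and Reg4 were listed at 0 in all 4 mice, and Reg3a and Reg3d did not exceed 0.251 FPKM, so that Reg3g was the family's only member above 1 FPKM. In the resistin family, Retnla, a product of alternatively activated macrophages and airway epithelium, was measured at 96.3 and 72.2 FPKM in the Usp25+/+ group and 69.1 and 138.7 FPKM in the Usp25-/- group. Retnlg, a neutrophil gene, was at 2073 and 24.5 against 80.6 and 49.1 FPKM. Retn stood at 1.90 FPKM and at 0 against 2.60 and 0.611 FPKM. Wfdc17, of the same whey acidic protein family as Slpi, stood at 4813 and 1730 against 2791 and 1827 FPKM, and Wfdc2 at 562 and 240 against 593 and 320 FPKM. The genotype groups overlapped for Retnla, Retnlg, Retn, Wfdc17 and Wfdc2. They did not for Wfdc18, also of the Slpi family, at 7.96 and 1.53 against 0.385 FPKM and 0 (log2 difference -2.02, limma unadjusted p = 0.0261, adjusted p = 0.968; too low to be tested without mouse WT-139). Dmbt1, a secreted scavenger protein of mucosa that binds bacteria, stood at 23.9 and 8.12 against 65.6 and 74.2 FPKM, higher in both Usp25-/- mice (log2 difference 2.23, limma unadjusted p = 0.00747, adjusted p = 0.968; 2.96 without mouse WT-139). The genes named here were picked with their values in view.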
